A study of Mus musculus with 8 samples.

Results

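Expression of 33 genes of the brain's blood vessels was followed in the arcuate nucleus of the mouse hypothalamus, 27 of them genes of the endothelium and 6 of the mural cells around it. The genes were chosen by name from general knowledge of the 2 cell types, with earlier results of these data known. Every row of the knockout and sponge gene tables with such a name was taken. A row was present for 32 of the 33 genes, among 13769 genes in those tables. Sox17 had no row in any gene table, and Emcn had no row in the sponge table. Filtering at a mean FPKM (fragments scaled to transcript length and to the size of the library) of 0.5 over the 4 libraries of a comparison left 31 of the 33 genes in each of the 3 comparisons, all but Sox17 and Emcn.

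The study set males of the genotype Pomc-Cre;miR-17-92flox/flox, in which the microRNA cluster miR-17-92 is deleted where Cre acts, against wild type male littermates. It also set females of the genotype Pomc-Cre;miR-7-sponge, which carry a transcript made to bind miR-7, against wild type female littermates, and it set wild type females against wild type males. All mice were C57BL/6 and 4 months old, and each group had 2 libraries, each made from the pooled arcuate nuclei of 2 mice. Cre is driven by the Pomc promoter, so the manipulation was aimed at POMC neurons and not at vessels, while the libraries hold RNA of all cells in the dissected tissue. The females and males of the wild type groups came from different mouse lines' litters, so sex and line cannot be told apart between them. Nothing says more of how the pools were made, so a p-value measures the spread between these libraries.

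Brain endothelial cells form the blood-brain barrier. Tight junctions seal the gaps between them, carrier proteins bring glucose and lipids in, and pumps return drugs and metabolites to the blood. Pericytes and smooth muscle cells, together called mural cells, lie on the outside of the endothelium, keep the barrier tight and set the width of the vessel. The arcuate nucleus lies beside the median eminence, whose capillaries are fenestrated and leaky. Several of the genes, among them Tjp1 and Slc2a1, are also used by other brain cells.

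FPKM summed to between 141666 and 152741 per library, and the number of reads behind a value is not known. Between 2 libraries of 1 group, gene values on the log2(FPKM + 1) scale correlated at a median of 0.906 (4 pairs), and between libraries of different groups at 0.909 (24 pairs). Some libraries stood apart in genes of neighbouring tissues. The 16 meningeal and fibroblast genes, led by Ptgds, summed to 394 and 272 FPKM in knockout males, against 106 and 98.3 FPKM in wild type males, and to 279.5 and 94.3 FPKM in sponge females, against 95.4 and 119 FPKM in wild type females. None of the 16 was at 0 in any library. The pituitary gene Gh stood at 248 FPKM in knockout library 1 and at no more than 61.9 FPKM in the other 7 libraries, and the choroid plexus gene Ttr stood at 510.0 FPKM in wild type female library 2 and at no more than 35.4 FPKM elsewhere. The arcuate neuron genes Agrp and Npy were present in all 8 libraries, at 14.6 to 28.3 FPKM for Agrp, and none of 8 arcuate neuron genes was at 0 in any library. The label of sponge library 2 says that its second raw read file was missing, and the sources used here do not say whether its FPKM come from 1 read file or both, which bears on each value of that library.

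The microRNAs that the study removed or sequestered are shown with their seed in capitals (bases 2 to 8, counted from the 5′ end), since the seed is what pairs with a target. The sequences are RefSeq's for GRCm38.p6. The 6 microRNAs of the cluster, on chromosome 14, carry 4 seeds, and both forms of miR-7 share 1 seed.
mmu-miR-17-5p: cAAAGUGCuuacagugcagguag
mmu-miR-20a-5p: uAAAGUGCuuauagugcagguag
mmu-miR-18a-5p: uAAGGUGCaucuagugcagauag
mmu-miR-19a-3p: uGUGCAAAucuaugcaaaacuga
mmu-miR-19b-3p: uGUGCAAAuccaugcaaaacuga
mmu-miR-92a-3p: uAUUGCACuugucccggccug
mmu-miR-7a-5p: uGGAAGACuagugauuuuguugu
mmu-miR-7b-5p: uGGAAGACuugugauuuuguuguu

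A match to bases 2 to 8 was looked for in every gene's longest 3′ UTR (GENCODE M21 annotation), on the transcript's strand. Of the 31 genes tested, 2 held a match to miR-17 and miR-20a, against 15.4% of all 13022 genes with a UTR, 3 held a match to miR-18a, against 10.3%, and none held one to miR-19, against 14.7%, or to miR-92a, against 8.33%. The matches to the cluster are shown with the 7 matching bases in capitals and with the position of their first base in the UTR. They lie in a pump gene, a junction gene, an adhesion gene, a receptor gene and a transcription factor gene.
Abcg2, miR-17 and miR-20a, base 45: caattaaatatggGCACTTTgattacca
Cldn5, miR-17 and miR-20a, base 192: gaacagactacagGCACTTTtaagaact
Pecam1, miR-18a, base 608: gagcacttaaagcGCACCTTgatcttcc
Tie1, miR-18a, base 888: ctacatcggagacGCACCTTcacttacc
Erg, miR-18a, base 1039: agctgaatttaggGCACCTTgggaccaa

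A match to miR-7 was present in 4 of the 31 genes, against 15.3% of all genes. These were Pecam1, Flt1, Tjp1 and Cdh5, the last with 2 matches.
Pecam1, miR-7a and miR-7b, base 227: gccagcctgacctGTCTTCCttgtgttt
Flt1, miR-7a and miR-7b, base 1618: attctgaggcaatGTCTTCCtccaggga
Tjp1, miR-7a and miR-7b, base 1440: tggcaaaacaagtGTCTTCCtggagatc
Cdh5, miR-7a and miR-7b, base 63: gacaccggacactGTCTTCCctgatttc
Cdh5, miR-7a and miR-7b, base 352: tgctgaacttttaGTCTTCCccaagggt

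No gene with a match passed the test in the comparison that concerned it, and the differences pointed both ways. In knockout males the difference from wild type males in log2(FPKM + 1) was 0.22 ± 0.19 for Abcg2, 0.22 ± 0.18 for Tie1, 0.15 ± 0.24 for Pecam1 and -0.066 ± 0.26 for Erg (± SE, 2 libraries a group, as throughout), and Cldn5, with a value at 0 in 1 library, is given further on. In sponge females the difference from wild type females was -0.15 ± 0.21 for Pecam1, -0.19 ± 0.15 for Flt1, -0.15 ± 0.18 for Tjp1 and 0.19 ± 0.20 for Cdh5.

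The vessel genes were expressed at low to moderate levels. In the 4 wild type libraries the 32 genes averaged between 0.468 FPKM for Emcn and 16.4 FPKM for Itm2a, with a median of 2.02 FPKM. Itm2a, Vtn, Slc2a1, Cldn5 and Tjp1 averaged 10 FPKM or more, and Emcn, Sox18, Erg and Vwf averaged under 1 FPKM. Itm2a stood above 85.8% of the listed genes and Emcn above 3.83% of them. FPKM is scaled to length, so these levels can be set beside each other.

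No vessel gene passed the test in knockout males against wild type males (limma across 13155 genes, Benjamini-Hochberg adjusted p under 0.05), where 8 genes, or 0.0608% of all tested, passed. The lowest adjusted p among the 31 genes was 0.792. At an unadjusted p under 0.05, 5 of the 31 were higher in knockout males (background 3.22%) and none was lower (background 2.11%). The 5 were Tagln, Acta2, Ets1, Slco1a4 and Vtn. Without knockout library 1 the 5 became 1, without knockout library 2 none, without wild type male library 1 they became 1 and without wild type male library 2 they became 3. Knockout values exceeded both wild type male values for 11 genes (background 22.5%) and below both for 1 gene, Mfsd2a (background 16.0%). The difference was positive for 21 of the 31 genes, with a median of 0.12, while it was positive for 53.9% of all genes tested, with a median of 0.032. An exact permutation test over 2 against 2 libraries cannot give a p under 0.333.

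In sponge females against wild type females no vessel gene passed either (limma across 13157 genes), where 14 genes, or 0.106%, passed. The lowest adjusted p was 1.00. At an unadjusted p under 0.05 none of the 31 was higher (background 1.65%) or lower (background 2.11%). Both sponge libraries lay below both wild type libraries for 11 genes (background 18.8%) and above both for none (background 12.1%). The difference was negative for 26 of the 31 genes, with a median of -0.15, while it was positive for 44.0% of all genes tested, with a median of -0.031. Without sponge library 1 the difference was negative for 20 of the 31, and without sponge library 2 also for 20. Without wild type female library 2 it was negative for 20 of 30 genes, and without library 4 for 25 of 30. In pooled tissue of this kind, fewer vessel cells and less RNA per vessel cell cannot be told apart.

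Mural genes were the role group with the largest median difference in knockout males. Their difference from wild type males was positive for 6 of 6 genes, with a median of 0.52, and 4 of the 6, Rgs5, Acta2, Tagln and Vtn, were higher without overlap (background 22.5%). When the median of each library was subtracted, 5 of 6 were positive, and when 1 library was left out 4 to 6 were. Of 16 other mural genes, given further on, 9 were positive in knockout males (53.9% of all genes), with a median of 0.082. In sponge females 1 of 6 was positive and 5 were negative, with a median of -0.12, and without sponge library 2 the median was 0.090 with 4 of 6 positive. Summed over the 6 genes, FPKM was 42.5 and 42.6 in knockout males, against 27.3 and 29.5 in wild type males, and 31.4 and 25.0 in sponge females, against 35.9 and 29.5 in wild type females.

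Acta2 (ENSMUSG00000035783.8, chr19:34241090-34255336, minus strand, mm10) encodes the actin of smooth muscle, and its reads may be shared with other actin genes. It had 4.22 and 5.15 FPKM in knockout males, against 1.91 and 2.87 FPKM in wild type males, and 2.62 and 2.42 FPKM in sponge females, against 3.02 and 3.17 FPKM in wild type females. The knockout values were the highest of the 8 libraries, and neither pair of groups overlapped. The difference was 0.76 ± 0.24 in knockout males (unadjusted p = 0.028, limma) and -0.22 ± 0.15 in sponge females. Tagln (ENSMUSG00000032085.4, chr9:45929628-45936058, minus strand), which encodes an actin-binding protein of smooth muscle, had 2.06 and 2.48 FPKM in knockout males, against 0.240 and 1.13 FPKM in wild type males, and 2.01 and 1.05 FPKM in sponge females, against 2.11 and 1.24 FPKM in wild type females. Wild type male library 1 was the lowest of all, and the sponge and wild type female ranges overlapped. Its differences were 1.01 ± 0.32 in knockout males (unadjusted p = 0.029) and -0.088 ± 0.29 in sponge females.

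Vtn (ENSMUSG00000017344.4, chr11:78499091-78502324, plus strand), the gene of the matrix protein vitronectin, which brain pericytes secrete, had 23.7 and 20.8 FPKM in knockout males, against 15.9 and 14.2 FPKM in wild type males, and 17.2 and 10.1 FPKM in sponge females, against 17.2 and 12.9 FPKM in wild type females. The knockout libraries stood above all 6 others. Its differences were 0.54 ± 0.19 in knockout males (unadjusted p = 0.040) and -0.16 ± 0.32 in sponge females. Rgs5, which encodes a damper of G-protein signalling in pericytes, had 7.58 and 7.92 FPKM in knockout males, against 4.59 and 5.90 FPKM in wild type males, and 3.73 and 6.05 FPKM in sponge females, against 8.62 and 6.55 FPKM in wild type females. The knockout values lay above, and the sponge values below, both of their wild type values. The differences were 0.50 ± 0.20 in knockout males and -0.56 ± 0.28 in sponge females, where it was -0.27 without sponge library 1 and -0.85 without sponge library 2.

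The other mural genes differed less. Pdgfrb, the receptor through which endothelial PDGF-B recruits pericytes, had 3.85 and 4.96 FPKM in knockout males, against 3.77 and 4.01 FPKM in wild type males, and 4.73 and 4.51 FPKM in sponge females, against 3.81 and 4.74 FPKM in wild type females. Abcc9, a subunit of the pericyte potassium channel gated by ATP, had 1.06 and 1.35 FPKM in knockout males, against 0.961 and 1.41 FPKM in wild type males, and 1.11 and 0.786 FPKM in sponge females, against 1.11 and 0.957 FPKM in wild type females. All these ranges overlapped, and the differences were 0.14 ± 0.21 and 0.015 ± 0.21 in knockout males and 0.10 ± 0.17 and -0.066 ± 0.17 in sponge females.

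**Figure D1:**
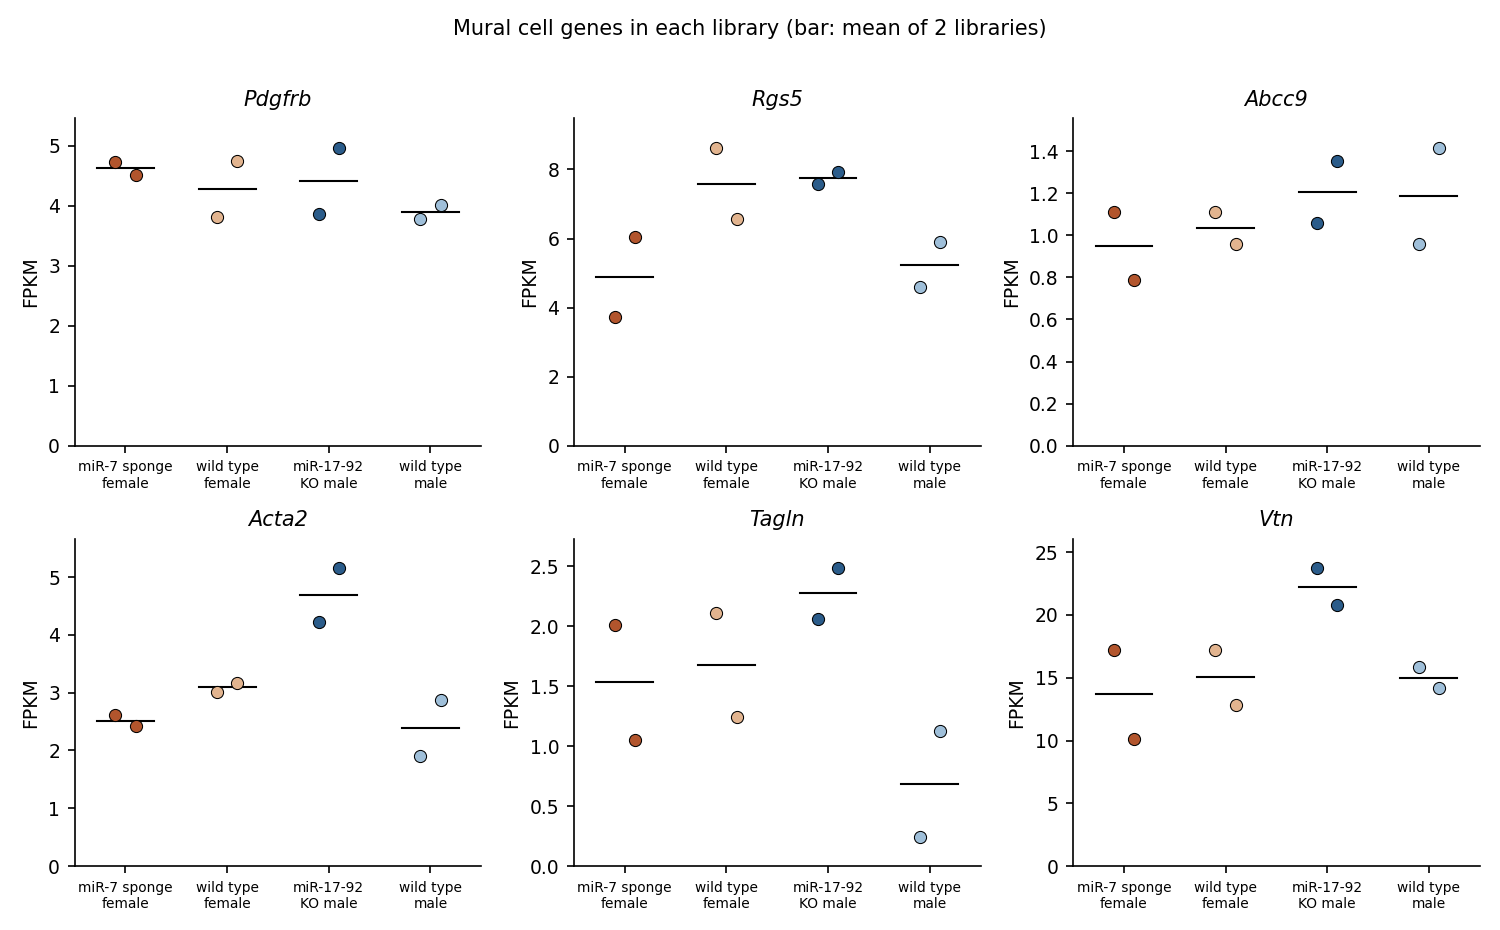
FPKM of the 6 mural genes in each of the 8 libraries, with 1 point per library, the points of a group in replicate order and a bar at the mean of the 2 libraries. Acta2 and Vtn had both knockout points above all other points, Tagln had both above the wild type male points, and the sponge points of Rgs5 and Acta2 lay below both wild type female points.

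Meningeal and fibroblast genes had higher values together with the mural genes in knockout males. Of the 16 genes of that list, 16 were positive in knockout males, with a median difference of 1.01. Of the 16, 13 were higher without overlap (background 22.5%) and 9 were higher at an unadjusted p under 0.05 (background 3.22%). None passed the adjustment, the lowest adjusted p being 0.290. Ptgds, which encodes the meningeal prostaglandin D synthase, had 327 and 222 FPKM in knockout males, against 80.6 and 68.6 FPKM in wild type males, a difference of 1.84 ± 0.27. Crabp2, the gene of a retinoic acid-binding protein, had 2.48 and 1.87 FPKM, against 0.119 and 0.505 FPKM, a difference of 1.28 ± 0.24. In sponge females 14 of the 16 genes were positive, with a median of 0.35 and a lowest adjusted p of 0.356, while the mural genes were mostly negative there. Sponge library 1 held 279.5 FPKM of the list and 31.4 FPKM of the mural genes, and sponge library 2 held 94.3 and 25.0 FPKM. The part of meningeal tissue in the mural values was not tested.

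**Figure D2:**
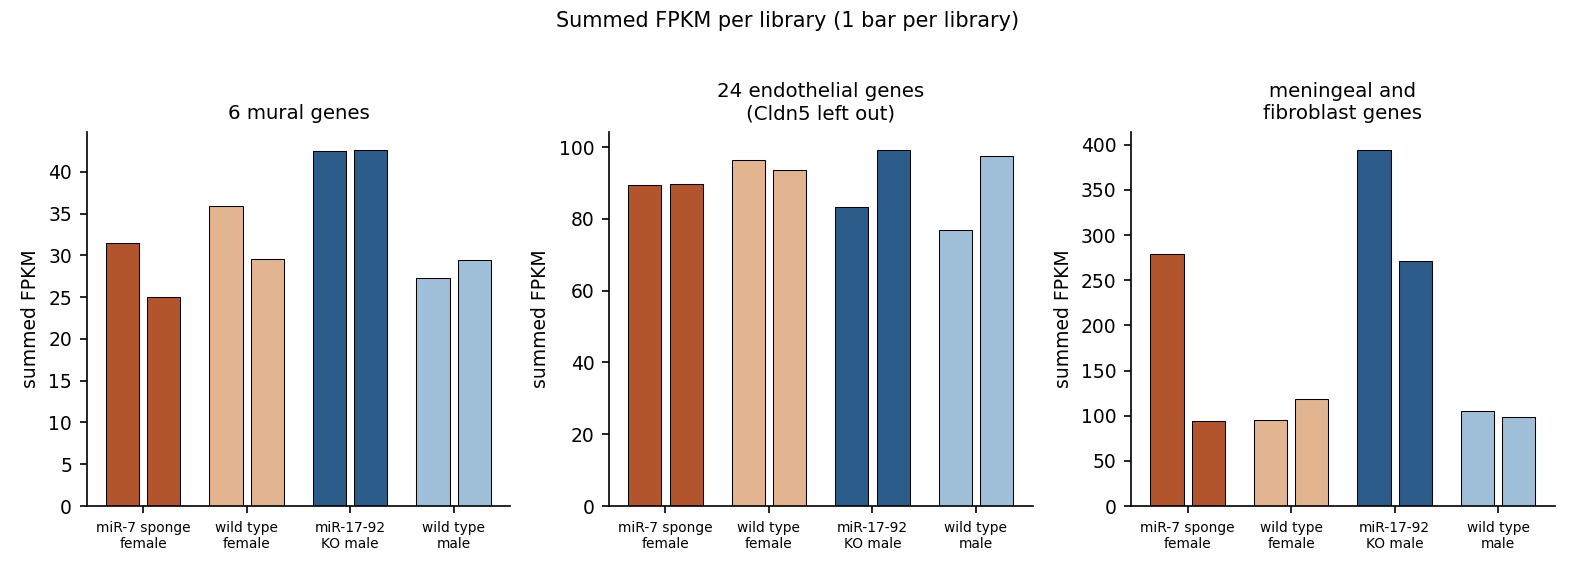
Summed FPKM in each library, with 1 bar per library, of the 6 mural genes, of 24 endothelial genes (Cldn5 left out, since it was listed at 0 in 1 library) and of the 16 meningeal and fibroblast genes. The knockout libraries were highest for the mural genes (42.5 and 42.6 FPKM) and 2 of the 3 highest for the meningeal genes, while the endothelial sums of the groups overlapped in males. Most of the meningeal sum was Ptgds, at 327 and 222 FPKM in knockout males and 229 FPKM in sponge library 1.

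The 24 endothelial genes without Cldn5 summed to 83.4 and 99.3 FPKM in knockout males, against 76.8 and 97.5 FPKM in wild type males, and to 89.4 and 89.6 FPKM in sponge females, against 96.4 and 93.7 FPKM in wild type females. In knockout males 15 of the 24 were positive (53.9% of all genes), with a median of 0.10. At an unadjusted p under 0.05, 2 were higher, Ets1 and Slco1a4 (background 3.22%). In sponge females 4 of the 24 were positive (44.0% of all genes) and 20 negative, with a median of -0.15. Of the 24, 9 lay below both wild type libraries (background 18.8%).

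Growth factor receptors were mostly positive in knockout males, 4 of 5 with a median of 0.16, and mostly negative in sponge females, 4 of 5 with a median of -0.19. Tek, the receptor of the angiopoietins, had 1.90 and 2.44 FPKM in knockout males, against 0.835 and 1.58 FPKM in wild type males, and 0.978 and 1.83 FPKM in sponge females, against 2.22 and 1.41 FPKM in wild type females. Tie1, its partner receptor, had 1.25 and 1.19 FPKM in knockout males, against 0.841 and 0.990 FPKM in wild type males, and 0.719 and 1.26 FPKM in sponge females, against 1.16 and 1.07 FPKM in wild type females. For both genes each knockout value was higher than either wild type male value, and the female ranges overlapped. The differences in knockout males were 0.54 ± 0.26 for Tek and 0.22 ± 0.18 for Tie1, and in sponge females -0.24 ± 0.28 and -0.10 ± 0.20. Flt1, the VEGF receptor that also exists as a soluble trap, had 2.23 and 2.96 FPKM in knockout males, against 2.69 and 2.91 FPKM in wild type males, and 2.84 and 2.89 FPKM in sponge females, against 3.27 and 3.54 FPKM in wild type females. Kdr, the main signalling receptor of VEGF, had 1.52 and 1.71 FPKM in knockout males, against 1.04 and 1.85 FPKM in wild type males, and 1.29 and 1.16 FPKM in sponge females, against 1.29 and 1.06 FPKM in wild type females. Eng, a co-receptor of TGF-beta ligands, had 1.65 and 1.94 FPKM in knockout males, against 2.21 and 0.958 FPKM in wild type males, and 1.42 and 1.1961 FPKM in sponge females, against 1.53 and 2.24 FPKM in wild type females. In males the ranges of these 3 genes overlapped, and in females Flt1 and Eng were lower in both sponge libraries. Their differences were -0.090 ± 0.21, 0.11 ± 0.24 and 0.16 ± 0.30 in knockout males and -0.19 ± 0.15, 0.032 ± 0.16 and -0.31 ± 0.20 in sponge females.

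Of the 5 barrier transporters, 3 were positive in knockout males, with a median of 0.22. The median was -0.11 in sponge females, where 4 of the 5 were negative. Slco1a4 (ENSMUSG00000030237.14, chr6:141805440-141856199, minus strand), the gene of an organic anion carrier, had 3.59 and 4.99 FPKM in knockout males, against 1.97 and 2.59 FPKM in wild type males, and 3.32 and 2.16 FPKM in sponge females, against 3.30 and 2.37 FPKM in wild type females. It was higher in both knockout libraries and overlapped in females, with differences of 0.68 ± 0.24 (unadjusted p = 0.040) and -0.042 ± 0.25. Abcb1a, the gene of the drug pump P-glycoprotein, had 4.56 and 4.76 FPKM in knockout males, against 3.09 and 3.69 FPKM in wild type males, and 2.92 and 3.19 FPKM in sponge females, against 4.17 and 3.55 FPKM in wild type females. Its knockout values were the highest and its sponge values were 2 of the 3 lowest of the 8 libraries, with differences of 0.37 ± 0.19 and -0.26 ± 0.16. Mfsd2a, which carries lysolipids with omega-3 fatty acids into the brain, had 7.03 and 7.10 FPKM in knockout males, against 8.51 and 8.81 FPKM in wild type males, and 8.18 and 7.78 FPKM in sponge females, against 9.51 and 10.4 FPKM in wild type females. It was lower in both manipulated groups without overlap, with differences of -0.26 ± 0.18 and -0.29 ± 0.15, neither of which passed the test. Abcb1a and Slco1a4 have close relatives in the genome, so reads may be split between them. Abcg2, another drug pump, had 1.36 and 1.55 FPKM in knockout males, against 1.03 and 1.2004 FPKM in wild type males, and 1.83 and 1.35 FPKM in sponge females, against 1.78 and 1.79 FPKM in wild type females. Slc2a1, the gene of the glucose transporter GLUT1, had 7.43 and 13.9 FPKM in knockout males, against 11.1 and 16.6 FPKM in wild type males, and 19.8 and 16.9 FPKM in sponge females, against 10.3 and 17.6 FPKM in wild type females. The ranges of Slc2a1 overlapped in both sexes, as did those of Abcg2 in females. The differences of Slc2a1 were -0.38 ± 0.37 and 0.41 ± 0.30, set beside 0.22 ± 0.19 and -0.11 ± 0.17 for Abcg2.

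The transcription factors that keep endothelial identity were among the lowest genes of the set, and 3 of 3 tested were below both wild type values in sponge females, as were 18.8% of all genes. Ets1 (ENSMUSG00000032035.15, chr9:32636221-32757820, plus strand) had 1.89 and 1.83 FPKM in knockout males, against 1.02 and 0.566 FPKM in wild type males, and 0.396 and 1.41 FPKM in sponge females, against 2.06 and 1.47 FPKM in wild type females. It was higher in both knockout libraries and lower in both sponge libraries, with differences of 0.69 ± 0.22 (unadjusted p = 0.028) and -0.58 ± 0.33. The sponge difference was -0.19 without sponge library 1 and -0.98 without sponge library 2. Erg, a factor of the same family, had 0.698 and 0.461 FPKM in knockout males, against 0.367 and 0.990 FPKM in wild type males, and 0.268 and 0.514 FPKM in sponge females, against 0.889 and 0.853 FPKM in wild type females. Sox18 had 0.148 and 0.619 FPKM in knockout males, against 0.449 and 0.851 FPKM in wild type males, and 0.182 and 0.446 FPKM in sponge females, against 0.787 and 0.800 FPKM in wild type females. Both overlapped in males and were below both wild type libraries in sponge females, with differences of -0.43 ± 0.17 for Erg and -0.46 ± 0.18 for Sox18 there, and of -0.066 ± 0.26 and -0.26 ± 0.26 in knockout males. Sox17, listed only as the transcript Sox17-006 in the wild type table, had 0.922 and 0.364 FPKM in wild type females, against 0.217 and 0.557 FPKM in wild type males.

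Junction and adhesion genes held the least steady value of the set. Cldn5 (ENSMUSG00000041378.1, chr16:18776847-18778260, plus strand), the gene of the claudin that seals the barrier, was listed at 0 in knockout library 1 and at 16.3 FPKM in knockout library 2, against 11.01 and 16.02 FPKM in wild type males. In females it had 5.98 and 9.02 FPKM in sponge females, against 11.6 and 6.82 FPKM in wild type females. Its difference in knockout males was -1.78 ± 1.38, and without knockout library 1 it was 0.28. Cldn5 has 1 exon, and of the 21 genes that were at 0 in knockout library 1 and at 10 FPKM or more in knockout library 2, 18 have 1 exon, against 2.60% of all listed genes. Each of the 8 libraries had between 11 and 31 genes at 0 that stood at 10 FPKM or more in its partner, and the 0 is given as listed.

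The other junction and adhesion genes were steadier in males, and Esam was the 1 of them without overlap in females. Ocln, the gene of occludin, had 2.13 and 2.21 FPKM in knockout males, against 2.59 and 2.12 FPKM in wild type males, and 3.03 and 1.81 FPKM in sponge females, against 2.41 and 2.53 FPKM in wild type females. Tjp1, the gene of the scaffold ZO-1, had 10.7 and 11.8 FPKM in knockout males, against 8.74 and 10.3 FPKM in wild type males, and 10.3 and 11.8 FPKM in sponge females, against 11.1 and 13.7 FPKM in wild type females. Tjp1 was above both wild type values in knockout males, and all other ranges of these genes overlapped. The adherens junction gene Cdh5 (VE-cadherin) had 1.52 and 1.84 FPKM in knockout males, against 1.99 and 1.03 FPKM in wild type males, and 2.17 and 1.55 FPKM in sponge females, against 1.65 and 1.33 FPKM in wild type females. Pecam1, an adhesion molecule of the whole endothelium, had 1.88 and 2.19 FPKM in knockout males, against 1.34 and 2.18 FPKM in wild type males, and 1.10 and 1.73 FPKM in sponge females, against 1.82 and 1.50 FPKM in wild type females. Esam, a further adhesion molecule, had 1.1965 and 1.69 FPKM in knockout males, against 1.76 and 0.944 FPKM in wild type males, and 0.966 and 1.86 FPKM in sponge females, against 2.27 and 2.26 FPKM in wild type females. Of these 3, Esam was below both wild type values in sponge females and the rest overlapped. Differences in knockout males were -0.077 ± 0.19 for Ocln, 0.22 ± 0.19 for Tjp1, 0.12 ± 0.26 for Cdh5, 0.15 ± 0.24 for Pecam1 and 0.069 ± 0.26 for Esam. In sponge females they were -0.042 ± 0.23 for Ocln, -0.15 ± 0.18 for Tjp1, 0.19 ± 0.20 for Cdh5, -0.15 ± 0.21 for Pecam1 and -0.46 ± 0.24 for Esam, which was -0.19 without sponge library 1 and -0.73 without sponge library 2.

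The remaining endothelial genes encode surface and secreted proteins, and 3 of 6 were positive in knockout males and 1 of 6 in sponge females. Itm2a, a membrane protein gene, had 15.7 and 19.7 FPKM in knockout males, against 11.5 and 20.5 FPKM in wild type males, and 17.6 and 17.2 FPKM in sponge females, against 19.3 and 14.6 FPKM in wild type females. Egfl7, which encodes a secreted protein of growing vessels, had 4.99 and 4.35 FPKM in knockout males, against 4.77 and 4.91 FPKM in wild type males, and 4.12 and 4.95 FPKM in sponge females, against 5.52 and 4.01 FPKM in wild type females. Ly6c1, a surface marker gene, had 4.56 and 4.82 FPKM in knockout males, against 2.61 and 6.95 FPKM in wild type males, and 3.64 and 4.21 FPKM in sponge females, against 7.10 and 2.34 FPKM in wild type females. All these ranges overlapped, and for Ly6c1 the wild type libraries of each sex lay farther apart than the manipulated ones. Cd34 had 1.68 and 0.835 FPKM in knockout males, against 1.59 and 1.36 FPKM in wild type males, and 1.00 and 0.741 FPKM in sponge females, against 1.55 and 1.02 FPKM in wild type females. Vwf, the gene of a clotting factor stored in endothelial granules, had 0.656 and 1.05 FPKM in knockout males, against 1.12 and 0.851 FPKM in wild type males, and 0.587 and 0.526 FPKM in sponge females, against 0.545 and 0.705 FPKM in wild type females. Emcn, a sialomucin gene of veins and capillaries, had 0.469 and 0.404 FPKM in knockout males, against 0.395 and 0.704 FPKM in wild type males, and 0.502 and 0.269 FPKM in wild type females. Cd34 was below both wild type values in sponge females. In knockout males the differences were 0.18 ± 0.33 for Itm2a, -0.044 ± 0.19 for Egfl7, 0.086 ± 0.42 for Ly6c1, -0.16 ± 0.26 for Cd34 and -0.11 ± 0.21 for Vwf. In sponge females they were 0.051 ± 0.19 for Itm2a, -0.048 ± 0.21 for Egfl7, -0.083 ± 0.47 for Ly6c1, -0.28 ± 0.20 for Cd34 and -0.061 ± 0.16 for Vwf.

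**Figure D3:**
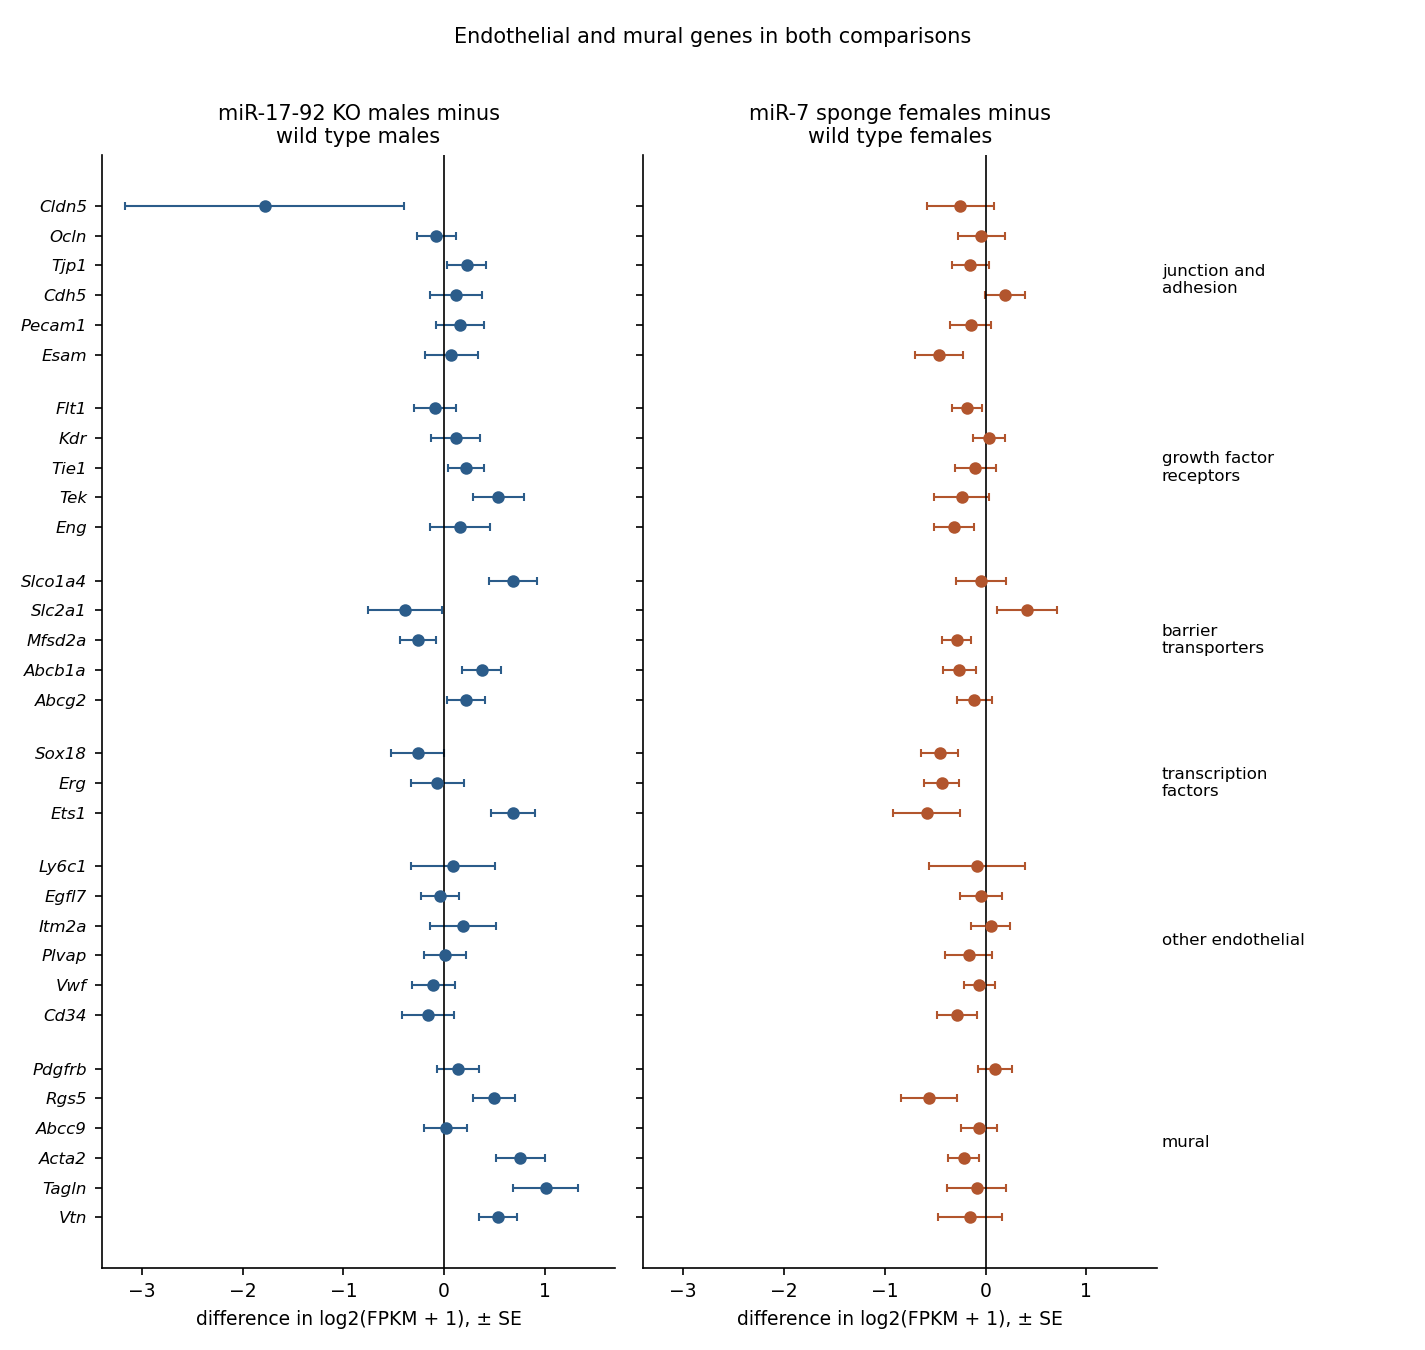
Difference in log2(FPKM + 1) of the 31 genes tested, ± SE, in miR-17-92 knockout males minus wild type males on the left and in miR-7 sponge females minus wild type females on the right, grouped by role, with a line at 0. The 6 mural genes lie at or to the right of the line in knockout males (Abcc9 to its left once each library's median is subtracted), and 26 of the 31 genes lie to its left in sponge females.

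A promoter is shown for 3 of the 5 genes that were higher in knockout males at an unadjusted p under 0.05, as the 150 bases before the start site (RefSeq, GRCm38.p6). Of the 33 genes, 23 had a promoter window in that table, and Tagln and Ets1 were not among them. Capitals mark CArG boxes, the element bound by serum response factor that is known from smooth muscle genes. A box was counted where CC and GG enclosed 6 bases with at most 1 G or C among them, on either strand.
Acta2, chr19:34255374-34255523, minus strand: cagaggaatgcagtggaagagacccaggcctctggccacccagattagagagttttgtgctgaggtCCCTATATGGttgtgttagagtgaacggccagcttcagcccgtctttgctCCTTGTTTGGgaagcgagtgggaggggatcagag
Slco1a4, chr6:141856221-141856370, minus strand: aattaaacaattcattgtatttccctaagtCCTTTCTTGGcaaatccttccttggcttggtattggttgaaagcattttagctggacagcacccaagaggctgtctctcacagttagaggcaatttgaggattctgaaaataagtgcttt
Vtn, chr11:78498970-78499119, plus strand: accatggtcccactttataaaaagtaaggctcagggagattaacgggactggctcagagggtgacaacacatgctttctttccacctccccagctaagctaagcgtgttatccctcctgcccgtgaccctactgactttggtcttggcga

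Acta2 held 2 such boxes, at bases -84 to -75 and -34 to -25 from the start site, Slco1a4 held 1 at -120 to -111, and Vtn held none. Boxes were also counted in the whole window, from 250 bases before to 50 after the start. Of all 32851 such windows, 9.98% held at least 1 box and 0.822% held 2 or more. Among the 31 windows of these 23 genes, 7 held a box (Acta2, Egfl7, Eng, Kdr, Ocln, Slco1a4 and Tek). None of the 31 held a box with no G or C in the core, which 1.63% of all windows do. The match to the ETS motif CCGGAAG was found in none of the 23 and in 8.86% of all windows.

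A few genes lay on opposite sides of their wild types in the 2 manipulations. Rgs5, Ets1, Acta2 and Abcb1a were above both wild type values in knockout males and below both in sponge females, 4 of 31 genes against a background of 4.04%. The reverse pattern was shown by none of the 31 (background 1.53%). The difference between the sponge effect and the knockout effect was -1.27 ± 0.41 for Ets1, -1.06 ± 0.35 for Rgs5, -0.98 ± 0.28 for Acta2 and -0.63 ± 0.23 for Abcb1a. Their unadjusted p-values in limma over all 8 libraries were 0.020, 0.022, 0.011 and 0.032, and the lowest adjusted p was 0.876. No other of the 31 had an unadjusted p under 0.05 (background 4.98%), and none of the 4 passed the adjustment, against 0.0154% of 13025 genes. With 1 of the 8 libraries left out, between 1 and 5 genes had a negative difference at an unadjusted p under 0.05. The 2 wild type groups, which both enter this contrast, also differed in these genes. Wild type females lay above wild type males without overlap (background 24.1%) for Ets1 (0.63 ± 0.23), Rgs5 (0.46 ± 0.22) and Acta2 (0.29 ± 0.21). For Abcb1a they overlapped (0.15 ± 0.18). Sex, mouse line and the kind of manipulation all differ between the 2 effects and cannot be told apart.

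Wild type females and wild type males differed most in Plvap, the gene of the protein that forms the diaphragms of fenestrated capillaries. Plvap (ENSMUSG00000034845.5, chr8:71497754-71511769, minus strand) had 0.930 and 1.44 FPKM in wild type females, against 3.70 and 2.82 FPKM in wild type males, a difference of -0.96 ± 0.22 (unadjusted p = 0.011, adjusted p = 0.678, limma across 13114 genes). Sponge females had 0.698 and 1.21 FPKM and knockout males 3.16 and 3.38 FPKM, so the 4 female libraries lay below the 4 male ones. Without any 1 of the 4 wild type libraries the difference lay between -1.13 and -0.79, and the unadjusted p stayed under 0.05 without wild type female library 4 or wild type male library 2 but not without either of the other two. Within each line the manipulated and wild type ranges overlapped, with differences of -0.17 ± 0.23 in sponge females and 0.011 ± 0.21 in knockout males.

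No vessel gene passed the adjustment between the sexes, where 0.0686% of all genes did. Plvap was the 1 gene lower in wild type females at an unadjusted p under 0.05 (background 2.14%), and none was higher (background 2.47%). Wild type females lay above wild type males without overlap for 10 of the 31 genes (background 24.1%) and below them for 2, Plvap and Vwf (background 10.9%), where Vwf had a difference of -0.29 ± 0.18. Of the 6 surface and secreted genes, the role group of Plvap, 5 were negative. The median difference was 0.13 over the 31 genes and 0.062 over all genes. Of the lists of other tissues, choroid plexus genes were higher in 4 of 5 (median 0.83) and red blood cell genes lower in 4 of 4 (median -0.58) in wild type females, and their part in the vessel values was not tested. The 4 choroid plexus genes with a value in every library averaged 4.41 in log2(FPKM + 1) in wild type female library 2 and 2.17 in library 4. In wild type males they averaged 1.84 and 2.46. The wild type libraries are the same as in the comparisons above.

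**Figure D4:**
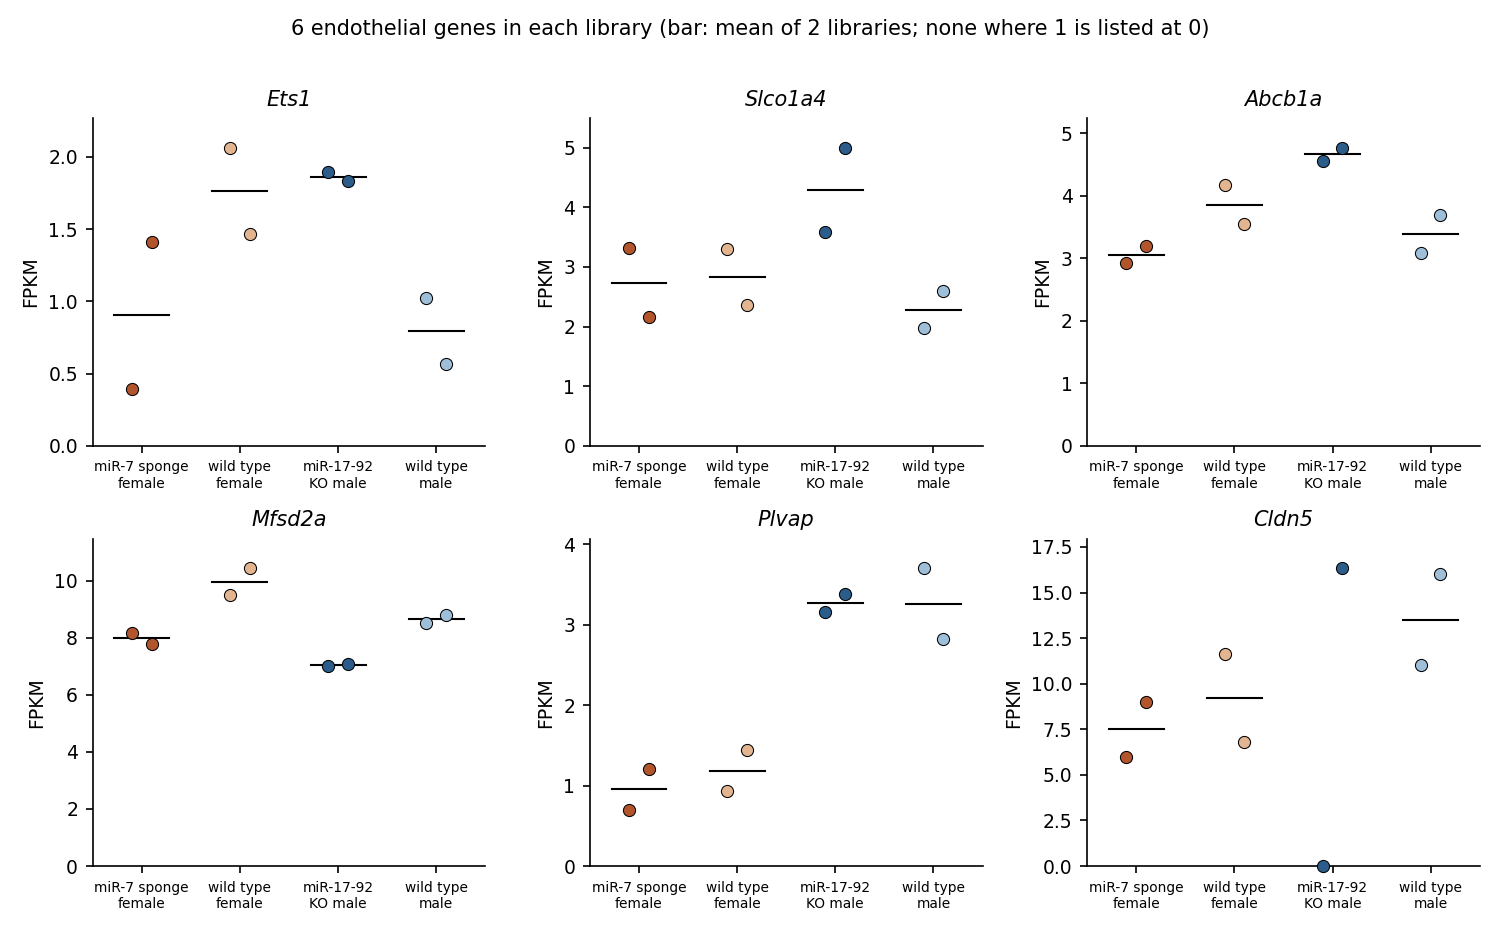
FPKM of 6 endothelial genes in each of the 8 libraries, with 1 point per library, the points of a group in replicate order and a bar at the mean of the 2 libraries, left out for Cldn5 in knockout males, where 1 library was listed at 0. Plvap separated the 4 female libraries (at most 1.44 FPKM) from the 4 male ones (at least 2.82 FPKM), and Mfsd2a was lower in both manipulated groups than in their wild types.

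After the same filter at a mean of 0.5 FPKM, 49 transcripts of 32 vessel genes were tested in each of the knockout and sponge comparisons, and 48 transcripts of 33 genes in the wild type comparison. None of them passed the adjustment, where 0.00904% of all transcripts did in the knockout comparison and 0% in the sponge comparison and in the wild type comparison. At an unadjusted p under 0.05 (limma), 2 transcripts were higher in knockout males (3.28% of all transcripts) and 1 was lower (2.54%). In sponge females 1 was higher (1.97%) and 1 lower (2.56%), and in wild type females 1 was higher (3.33%) and 2 lower (2.44%) than in wild type males. Of the genes, 10 had more than 1 transcript in all 8 libraries. The most abundant transcript held over 50% of the summed FPKM in every library for Slc2a1 (86.8% to 99.99%) and Tjp1 (56.7% to 84.6%). For Slco1a4, Egfl7, Pecam1, Ly6c1 and Flt1 its lowest share in a library was between 27.4% and 38.4%. For Abcg2, Cd34 and Ocln it was listed at 0 in at least 1 library.

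Flt1 was listed as 2 transcripts. The long transcript Flt1-001 has 30 exons and 1333 codons, and the short transcript Flt1-002 has 13 exons and 688 codons. A soluble form of FLT1 without the membrane-spanning and kinase parts is known to trap VEGF. Transcript values are not scaled to add up to the gene's value in these tables. Flt1-001 had 2.31 and 3.11 FPKM in knockout males, against 3.98 and 3.86 FPKM in wild type males, and 3.70 and 2.23 FPKM in sponge females, against 3.69 and 4.72 FPKM in wild type females. The short transcript, Ly6c1-002 and the Abcg2 pair were singled out after their values were seen. Flt1-002 made up 49.2% and 48.04% of the sum in knockout males, against 25.5% and 34.3% in wild type males, and 33.5% and 61.8% in sponge females, against 44.5% and 33.3% in wild type females. The shares did not overlap in males and overlapped in females. The difference in knockout males was -0.42 ± 0.32 for Flt1-001 and 0.41 ± 0.37 for Flt1-002.

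**Figure D5:**
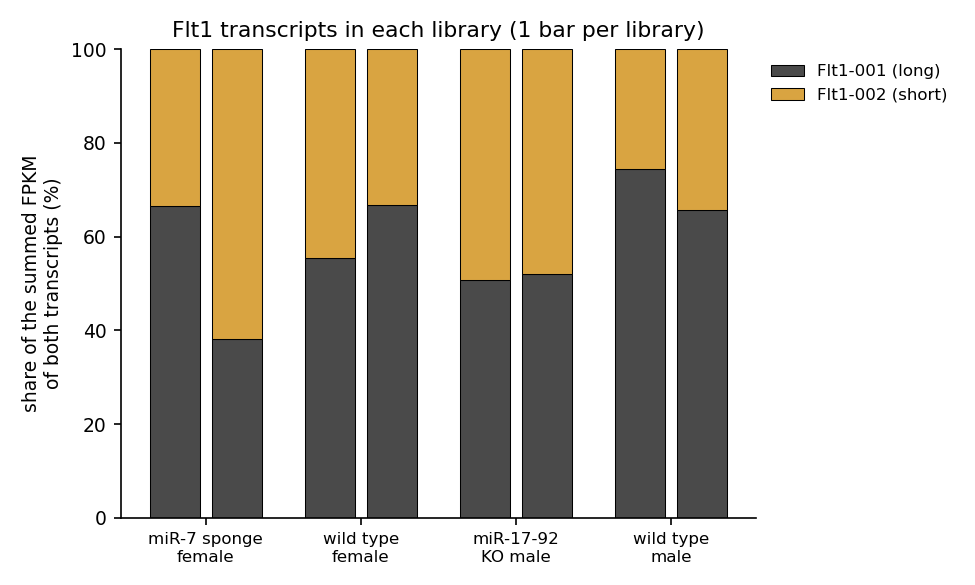
Share of the 2 Flt1 transcripts in their summed FPKM, with 1 bar per library. The short transcript took 49.2% and 48.04% in knockout males, against 25.5% and 34.3% in wild type males, and ranged from 33.5% to 61.8% in sponge females.

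Ly6c1 has a near-identical relative, Ly6c2, so its values are uncertain. Ly6c1-002 had 6.61 and 3.56 FPKM in knockout males, against 0 and 0.090 FPKM in wild type males, while Ly6c1-001, of the same coding length of 131 codons, had 2.50 and 4.88 FPKM, against 5.19 and 12.5 FPKM. The difference of Ly6c1-002 was 2.50 ± 0.43 (adjusted p = 0.532), the lowest adjusted p of a vessel transcript in that comparison. Abcg2-007 had 4.56 and 4.05 FPKM in sponge females, against 0.442 and 1.43 FPKM in wild type females, and Abcg2-001 had 0.589 and 0.107 FPKM, against 2.21 and 1.81 FPKM, with differences of 1.50 ± 0.39 and -1.18 ± 0.37. Both encode 657 codons, and the gene's own values overlapped in females.

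Genes of the pathways that join endothelium, mural cells and the barrier were set beside the vessel genes, and none of them passed the test in any of the 3 comparisons. Of the VEGF and angiopoietin ligands and co-receptors, 5 of 7 genes tested were positive in knockout males and 3 of 7 in sponge females. Of the PDGFB, TGF-beta and Notch signals between endothelium and mural cells, 7 of 16 were positive in knockout males, with a median of -0.21 and 6 below both wild types (background 16.0%), and 9 of 18 in sponge females. None of the PDGFB, TGF-beta and Notch genes was above both wild types in knockout males (background 22.5%). The Notch target Hes1 had 2.11 and 1.94 FPKM in knockout males, against 3.001 and 2.997 FPKM in wild type males, a difference of -0.40 ± 0.18. In sponge females Hes1 had 3.16 and 3.91 FPKM, against 1.85 and 2.89 FPKM in wild type females, higher without overlap, a difference of 0.44 ± 0.23. Of the Wnt and Norrin barrier genes, 8 of 15 were positive in knockout males and 9 of 17 in sponge females. Tspan12, a co-receptor of Norrin signalling, differed by 0.40 ± 0.20 in knockout males, and Wnt7a, a ligand that induces the barrier, by 0.68 ± 0.49 there and by -0.36 ± 0.16 in sponge females. Wnt7a had 4.61 and 4.39 FPKM in knockout males, against 1.12 and 4.53 FPKM in wild type males, so these ranges overlapped. In sponge females Wnt7a lay below both wild type values. Placental growth factor, Pgf, a ligand of FLT1, differed by 0.19 ± 0.19 in knockout males and by -0.14 ± 0.19 in sponge females.

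Among other barrier transporters, 9 of 19 were positive in knockout males and 8 of 20 in sponge females. Slc7a5, the carrier of large neutral amino acids, had 3.60 and 3.77 FPKM in knockout males, against 13.0 and 8.77 FPKM in wild type males, a difference of -1.32 ± 0.25, and its difference in sponge females was -0.71 ± 0.28. Slc7a5 did not pass the adjustment in either comparison, and its adjusted p was 0.464 in knockout males.

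Other endothelial and mural genes, not among the 33, are given beside them. They were named from general knowledge, with earlier results of these data known. Of 30 other endothelial genes, 22 were positive in knockout males, with a median of 0.13, and 11 of 29 in sponge females, with a median of -0.032. In knockout males Tmem204 differed by 1.09 ± 0.31 and Arhgap29 by 0.63 ± 0.19, and in sponge females Ptprb, an endothelial phosphatase gene, differed by -0.43 ± 0.16. Of other mural genes, 9 of 16 were positive in knockout males, with a median of 0.082, and 6 of 15 in sponge females. Myl9, a smooth muscle myosin light chain gene, had a difference of 0.78 ± 0.30 in knockout males, and Zic1, a transcription factor gene also made by meninges and neurons, had one of -0.85 ± 0.50, below both wild type values. Sncg, counted among the mural genes and also made by neurons, had a difference of -0.54 ± 0.14 in sponge females. Other junction genes were positive for 4 of 12 in knockout males and 6 of 13 in sponge females. Cgnl1, which encodes a relative of the junction protein cingulin, differed by 0.71 ± 0.18 in knockout males, and the adhesion gene Jam3 by 0.51 ± 0.16 in sponge females.

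Values of genes of the other cell types in the dissected tissue are set beside these. In knockout males the median difference was -0.31 over 11 oligodendrocyte genes, -0.013 over 10 neuronal genes, -0.048 over 8 astrocyte genes, 0.0038 over 9 microglia and macrophage genes, 0.18 over 7 tanycyte and ependymal genes, 0.17 over 5 red blood cell genes, -0.31 over 4 choroid plexus genes and 0.45 over 7 pituitary genes. The 7 pituitary genes summed to 372 and 25.7 FPKM in knockout males, against 74.7 and 100.3 FPKM in wild type males. Pomc is on both the pituitary and the arcuate neuron list. In sponge females, where most vessel genes were lower, 8 of 8 astrocyte genes were negative (median -0.12), 9 of 11 oligodendrocyte genes were negative (median -0.43) and 7 of 7 choroid plexus genes were negative (median -0.53), while 6 of 7 tanycyte and ependymal genes were positive (median 0.13). The 4 choroid plexus genes with a value in every library averaged 2.27 and 2.85 in log2(FPKM + 1) in sponge females. In wild type females they averaged 4.41 in library 2 and 2.17 in library 4. Arcuate neuron genes were positive for 1 of 8 in knockout males (median -0.35) and for 7 of 8 in sponge females (median 0.13). The other medians in sponge females were 0.24 over 6 pituitary genes, -0.014 over 9 microglia and macrophage genes, -0.081 over 10 neuronal genes and 0.052 over 4 red blood cell genes. The part of these cell types in the vessel values was not tested.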

How the data were processed

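RNA of the arcuate nucleus was measured by sequencing in 8 libraries, poly(A)-selected and stranded, and read for 150 cycles from both ends, per the labels' protocols. Per the submitters' processing notes, the tools were HISAT2 2.0.4, StringTie 1.2.3, cutadapt and FastQC, with the mm10 (GRCm38) genome, and Ballgown, per the series design text. The authors deposited FPKM per gene and per transcript, with no read counts, so the depth and the precision it gives are unknown. In each comparison of 4 libraries, genes averaging 0.5 FPKM or more were tested on log2(FPKM + 1) with limma 3.58.1 in R 4.3.3, using empirical Bayes with a mean-variance trend and a Benjamini-Hochberg adjustment over all genes tested, with a threshold of 0.05. A fold change on this scale understates the change of low genes. Only the gene fit of the knockout comparison was tried on simulated data, with changes added only to genes of higher level. Genes as low as many of the vessel genes were not covered by that trial. Transcripts were tested with the same limma fit and adjustment as genes. The difference between the sponge and knockout effects was tested over all 8 libraries.

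All 33 genes are named. A gene of the transporter list is not reported here. In wild type females against wild type males those with an unadjusted p under 0.05 are named, and of each other list at most some of the genes of smallest p or highest level. The genes and lists were chosen with earlier results of these data known, so a pattern among them is no independent support. Seed matches use the longest 3′ UTR of GENCODE M21, whose transcripts also gave exon and codon numbers, and promoters and microRNAs are RefSeq's for GRCm38.p6. The alternatives were another pseudocount of 0.1, no filter, subtraction of each library's median, no trend, all 8 libraries in 1 fit, the replicate number as a block, and leaving out each library. Overlapping genes can share reads.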

Additional observations from a re-analysis of the deposited data

Results flagged for a closer look

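The effect of the sponge in females and the effect of the knockout in males differed in 4 of the 31 genes by a test of that difference over all 8 libraries (limma, unadjusted p under 0.05), as in 4.98% of all genes. The genes with a negative difference at that p numbered 1 without wild type female library 2 and 2 without either knockout library. The sponge effect minus the knockout effect was -1.27 on the log2 scale for Ets1, a transcription factor gene (unadjusted p = 0.020). It was -1.06 for Rgs5, a pericyte gene (unadjusted p = 0.022), -0.98 for Acta2, the smooth muscle actin gene (unadjusted p = 0.011), and -0.63 for Abcb1a, a drug pump gene (unadjusted p = 0.032). For these 4, each knockout value exceeded both wild type male values, and each sponge value was under both wild type female values, a pattern shown by 4.04% of all genes. For Ets1, Rgs5 and Acta2, wild type females also lay above wild type males without overlap, as did 24.1% of all genes. None passed the adjustment over 13025 genes, where the lowest adjusted p of the 4 was 0.876. Each kept its sign when any 1 of the 8 libraries was left out. The separation of the values in both comparisons fixes this outcome, so it gives no further support.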

How the results depend on the processing

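None of the vessel genes passed the test under any alternative run in the 3 comparisons, nor in the difference between the 2 effects, for which a pseudocount of 0.1 and leaving out each library were run. In knockout males the genes higher at an unadjusted p under 0.05 numbered 5 in the reported fit and 4 with a pseudocount of 0.1. They numbered 4 with medians subtracted and 3 with all 8 libraries. Of all genes tested, 701, 685 and 690 of 13155, and 909 of 12961, had such a p in either direction. With 1 library left out, the median difference of the vessel genes lay between 0.054 and 0.24. Over all genes, those called numbered 8 in knockout males, 2 with a pseudocount of 0.1 and 0 without any 1 library. In sponge females they numbered 14, with 2 when all 8 libraries were fitted and 0 without any 1 library. In wild type females against wild type males they numbered 9, with 3 and 0 under the same alternatives. With the replicate block 0 genes were called in knockout males. At an unadjusted p under 0.05, 4 vessel genes were then higher, beside 582 of 13155 genes in either direction. The pairing of libraries by number was not borne out (correlation of deviations 0.0012), and sponge and wild type females share 1 number, so no block could be fitted there. With each library's median subtracted, the difference in knockout males became -0.016 for Plvap and -0.012 for Abcc9. Leaving out 1 library turned the direction of 18 of 31 genes in knockout males, over ranges of -3.84 to 0.28 for Cldn5, -0.18 to 0.024 for Ocln, -0.16 to 0.39 for Cdh5, -0.069 to 0.38 for Pecam1, -0.18 to 0.32 for Esam, -0.24 to 0.058 for Flt1, -0.13 to 0.36 for Kdr, -0.20 to 0.51 for Eng, -0.79 to 0.024 for Slc2a1, -0.34 to 0.20 for Erg, -0.48 to 0.66 for Ly6c1, -0.13 to 0.037 for Egfl7, -0.21 to 0.58 for Itm2a, -0.14 to 0.16 for Plvap, -0.26 to 0.047 for Vwf, -0.43 to 0.11 for Cd34, -0.010 to 0.29 for Pdgfrb and -0.13 to 0.17 for Abcc9. It turned the direction of 17 of 31 genes in sponge females, over ranges of -0.59 to 0.10 for Cldn5, -0.30 to 0.22 for Ocln, -0.34 to 0.041 for Pecam1, -0.044 to 0.11 for Kdr, -0.30 to 0.10 for Tie1, -0.49 to 0.021 for Tek, -0.27 to 0.18 for Slco1a4, -0.24 to 0.023 for Abcg2, -0.72 to 0.56 for Ly6c1, -0.24 to 0.14 for Egfl7, -0.14 to 0.24 for Itm2a, -0.35 to 0.022 for Plvap, -0.13 to 0.010 for Vwf, -0.031 to 0.22 for Pdgfrb, -0.19 to 0.055 for Abcc9, -0.36 to 0.19 for Tagln and -0.51 to 0.20 for Vtn. With 1 library left in a group, it is assumed to vary like the others. The cause of these turns was not tested. The tables hold no counts, so what depth limits cannot be given.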
